A study of Rattus norvegicus with 24 samples.

Results

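The transcripts of 6 rat liver enzymes of glucose and glycogen metabolism were followed through a bile duct and hepatocyte injury caused by ANIT (alpha-naphthylisothiocyanate): G6pc1, Pck1, Fbp1, Gys2, Pklr and Pygl. They were taken as every probe set whose platform annotation names 1 of these genes and no other, which gave 8 of the 31139 probe sets on the array and 6 of the 13438 genes measured. G6pc1 and Pklr had 2 such probe sets each and the other enzymes 1. A further 2 probe sets that name a member together with other genes were not used.

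The liver of 24 male Sprague Dawley rats, 8 weeks old, RNA was hybridised to 24 arrays of 1 colour, with 6 rats per group and an array for each rat. Rats were given 50 mg/kg ANIT in corn oil by gavage, or corn oil alone (vehicle), and were killed 24 h later, at the peak of the injury, or 120 h later, during its resolution. All 4 groups were without food for about 18 h before necropsy, so every level below is that of a fasted liver, and all rats had 100 mg/kg BrdU (bromodeoxyuridine, a label of DNA synthesis) injected about 2 h before death. The comparisons ask how ANIT changed these transcripts at each time, whether its effect differed between the times and whether the vehicle groups differed.

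The liver keeps blood glucose steady between meals by releasing glucose made from glycogen and from lactate, glycerol and amino acids. In a fast, Pck1 (cytosolic phosphoenolpyruvate carboxykinase) draws oxaloacetate towards glucose, Fbp1 (fructose-1,6-bisphosphatase) passes a control step further on, and G6pc1 (the catalytic subunit of glucose-6-phosphatase) frees glucose from glucose 6-phosphate at the end of both routes. Pklr, the liver pyruvate kinase, works the opposite way and closes glycolysis. Gys2, the liver glycogen synthase, lengthens glycogen, and Pygl, the liver glycogen phosphorylase, shortens it. All of these enzymes are also regulated as proteins, and array values report transcripts alone.

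The 250 bases before the RefSeq start of G6pc1 (chr10:86807409-86807658, plus strand), Pck1 (chr3:182348322-182348571, plus strand), Gys2 (chr4:177137237-177137486, minus strand) and Pygl (chr6:94476220-94476469, minus strand) in build GRCr8 are shown because the first pair, both induced by fasting, and the second pair, which oppose each other on glycogen, behaved differently in these livers. Capitals mark matches, on either strand, to the core of a cAMP response element (ACGTCA), a nuclear receptor half-site (AGGTCA), an HNF1 half-site (GTTAAT) or a forkhead core (TGTTTNC). An E-box (CACGTG) was searched as well. No match overlaps another.
G6pc1: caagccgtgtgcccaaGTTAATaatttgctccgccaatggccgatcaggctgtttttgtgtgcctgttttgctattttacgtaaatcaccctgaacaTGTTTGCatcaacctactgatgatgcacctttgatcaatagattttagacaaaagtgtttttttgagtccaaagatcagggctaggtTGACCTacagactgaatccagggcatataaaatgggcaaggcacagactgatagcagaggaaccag
Pck1: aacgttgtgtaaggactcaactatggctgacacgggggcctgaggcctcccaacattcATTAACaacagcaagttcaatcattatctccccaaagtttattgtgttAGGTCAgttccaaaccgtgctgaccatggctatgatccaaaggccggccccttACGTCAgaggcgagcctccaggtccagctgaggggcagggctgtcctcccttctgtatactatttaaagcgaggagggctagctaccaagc
Gys2: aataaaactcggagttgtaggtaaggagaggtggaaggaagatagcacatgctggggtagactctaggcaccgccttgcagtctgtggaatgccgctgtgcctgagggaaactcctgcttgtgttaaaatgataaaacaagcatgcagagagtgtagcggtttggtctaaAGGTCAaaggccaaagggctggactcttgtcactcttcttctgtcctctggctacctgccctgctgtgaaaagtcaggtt
Pygl: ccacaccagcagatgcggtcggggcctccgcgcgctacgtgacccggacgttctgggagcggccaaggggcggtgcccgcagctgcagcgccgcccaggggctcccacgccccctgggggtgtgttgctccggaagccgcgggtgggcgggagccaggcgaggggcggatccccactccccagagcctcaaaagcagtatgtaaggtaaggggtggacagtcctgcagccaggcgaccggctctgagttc

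In the G6pc1 window a forkhead core lies at -153 to -147 from the start, an HNF1 half-site at -234 to -229 and a nuclear receptor half-site, on the opposite strand, at -66 to -61. The Pck1 window holds a cAMP response element core at -91 to -86, a nuclear receptor half-site at -144 to -139 and, on the opposite strand, an HNF1 half-site at -192 to -187. Gys2 has a nuclear receptor half-site at -80 to -75, and the Pygl window has none of these letters. Of 33469 rat promoter windows of this length, 6.95% hold the cAMP core, 14.1% the nuclear receptor half-site, 6.45% the HNF1 half-site, 18.3% the forkhead core and 5.59% the E-box. These matches describe the sequence and were not tested as binding sites.

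Several measures of the arrays moved with the groups. The spread of the values within an array, as an SD, ran from 1.84 to 2.09. It was cut into 3 bands at its widest gaps, with 3 vehicle rats of 24 h and 3 ANIT rats of 120 h making up the narrow band. The number of bands was fixed by this method, and no label names them as batches. The mean level of the spiked hybridisation controls was 11.16 in vehicle and 10.81 in ANIT at 24 h, and 10.86 and 11.01 at 120 h. The log2 ratio of the 3' to the 5' probe sets of beta-actin, a measure of RNA quality and labelling, ran from 2.77 to 2.91 in vehicle and from 2.98 to 3.18 in ANIT at 24 h, with no overlap.

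G6pc1 showed the widest fall among the 6 enzymes at the peak of injury, while Pck1 and Fbp1, which act upstream of it, showed no change that passed the test. At 24 h Gys2 rose and Pklr and Pygl fell by smaller amounts, and by 120 h Gys2 had gone below vehicle. Of the 6 enzymes, 1 was higher and 3 were lower after ANIT at 24 h (limma, Benjamini-Hochberg adjusted p under 0.05 over 13438 genes, which is what "called" means below). The same test called 18.2% of all genes at 24 h, 12.9% as higher and 5.31% as lower. At 120 h it called 1 of the 6, Gys2, as lower, against 2.02% of all genes, 0.513% as higher and 1.51% as lower. The median change over the 6 enzymes was -0.24 at 24 h and -0.13 at 120 h, and that over all genes was 0.00 and -0.01 (log2).

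The glucose-releasing enzyme came first. In vehicle livers at 24 h, G6pc1 had log2 values from 9.28 to 10.58 with a median of 10.02. In ANIT livers at 24 h its values ran from 7.83 to 9.005 with a median of 8.18. All 6 ANIT rats lay below all 6 vehicle rats, a separation in either direction seen for 7.87% of genes at 24 h and for no other of the 6 enzymes. The G6pc1 transcript was 3.17-fold lower, a log2 change of -1.66 ± 0.19 (SE, n = 6 and 6, limma adjusted p = 7.74e-07). At 120 h the vehicle values of G6pc1 ran from 10.17 to 10.73 (median 10.33) and the ANIT values from 9.38 to 10.17 (median 9.88). The ANIT rats again lay below the vehicle rats, though the highest ANIT value nearly met the lowest vehicle value. This difference of -0.52 ± 0.19 did not pass the test (limma adjusted p = 0.198). The effect of ANIT on G6pc1 was less negative at 120 h than at 24 h by 1.15 ± 0.27 (limma adjusted p = 0.00598).

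The other G6pc1 probe set gave much the same picture at 24 h. Its vehicle values ran from 7.37 to 9.25 and its ANIT values from 6.22 to 7.54, so that the groups overlapped slightly. Its change was -1.61 ± 0.26 (limma fit of all 31139 probe sets, adjusted p = 9.87e-05), in a fit that called 11.8% of probe sets. At 120 h it was lower by a wider margin than the first probe set, with ANIT values from 7.60 to 8.67 against 8.65 to 9.29 in vehicle. That change of -0.80 ± 0.26 was not called (limma adjusted p = 0.164), in a fit that called 0.954% of probe sets at 120 h. On this probe set the difference between the times, 0.81 ± 0.36, was not called either (limma adjusted p = 0.169), so the partial return of G6pc1 at 120 h passed the test on 1 of its 2 probe sets.

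Fbp1 held a narrow range throughout. Its medians were 11.72 in vehicle at 24 h, 11.79 in ANIT at 24 h, 11.85 in vehicle at 120 h and 11.74 in ANIT at 120 h, and its 24 values lay between 11.52 and 11.96. The groups overlapped at both times. The change was 0.04 at 24 h, with a 95% interval from -0.12 to 0.19 (limma adjusted p = 0.773), and -0.12 at 120 h, with an interval from -0.27 to 0.04 (limma adjusted p = 0.504).

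Pck1, a textbook target of glucagon and cAMP, also kept a narrow range. Its medians were 12.02, 11.91, 12.10 and 12.05 in vehicle and ANIT at 24 h and vehicle and ANIT at 120 h, and its values ran from 11.86 to 12.35. No group of Pck1 stood apart. The change at 24 h was -0.07, with a 95% interval from -0.24 to 0.10 (limma adjusted p = 0.589), and at 120 h it was 0.04, with an interval from -0.13 to 0.21 (limma adjusted p = 0.861). The signs of the small 24 h changes of Pck1 and Fbp1 turned with the control level or the beta-actin ratio as a covariate, that of Pck1 also with a common median, and that of Fbp1 also with the bands as a block and without the narrow band. Neither gene was called under any of these.

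Pklr, on the glycolytic side, was lower in ANIT livers at 24 h. Vehicle values at 24 h ran from 8.11 to 8.63 (median 8.48) and ANIT values from 7.71 to 8.47 (median 8.04). The ranges overlapped through 2 ANIT rats, at 8.12 and 8.47. The change was -0.41 ± 0.14, 1.33-fold lower (limma adjusted p = 0.0428). The call stood close to the threshold: it was lost when 9 of the 24 rats were left out in turn (4 vehicle and 5 ANIT rats of the 24 h groups), with adjusted p up to 0.109. The other Pklr probe set changed by -0.40 ± 0.14 (limma fit of all probe sets, adjusted p = 0.0656).

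At 120 h the Pklr values overlapped, from 7.53 to 8.12 in vehicle and from 7.47 to 8.10 in ANIT, and the change of -0.14 ± 0.14 was not called (limma adjusted p = 0.672). The other probe set gave -0.44 ± 0.14 (limma fit of all probe sets, adjusted p = 0.166). Pklr also had the widest gap of the 6 enzymes between the vehicle groups, 0.56 ± 0.14 lower at 120 h than at 24 h, with values that met at 8.12 and 8.11. That gap did not pass the test (limma adjusted p = 0.135), but did with quantile normalization, at -0.69 (adjusted p = 0.036). The difference between the ANIT effects at the 2 times was 0.26 ± 0.20 for Pklr and was not called (limma adjusted p = 0.371), and on the other probe set it was -0.03 ± 0.20 (limma fit of all probe sets, adjusted p = 0.925).

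**Figure D1:**
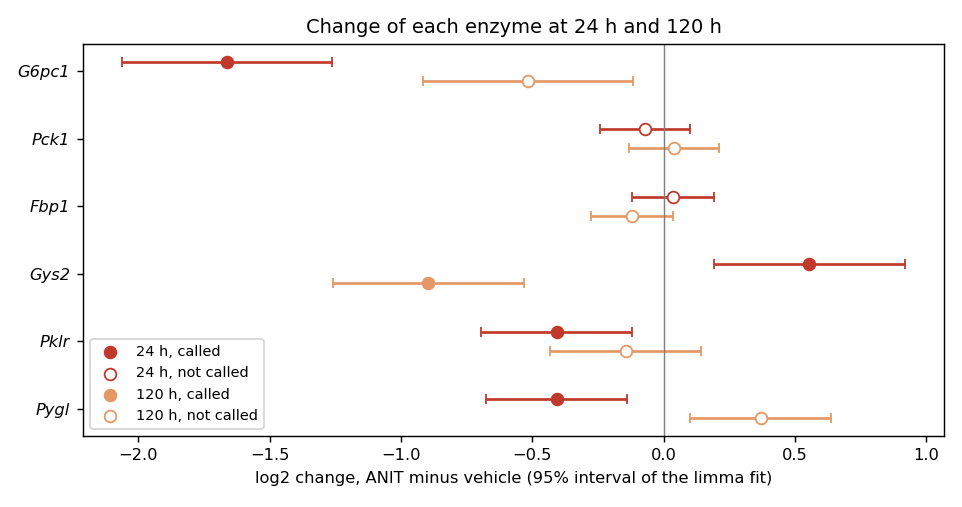
Log2 change of each enzyme, ANIT minus vehicle, at 24 h (red) and 120 h (orange), with the 95% interval of the limma fit; filled points have an adjusted p under 0.05. The 24 h change of G6pc1 was -1.66, the changes of Gys2 were 0.56 at 24 h and -0.90 at 120 h, and Pck1 and Fbp1 stayed within intervals that include 0.

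Of the glycogen enzymes, Gys2 was called higher and Pygl lower at 24 h, and Gys2 was called lower at 120 h. Gys2 ran from 8.20 to 9.43 in vehicle livers at 24 h (median 9.12) and from 9.29 to 9.65 in ANIT livers at 24 h (median 9.48). The vehicle group was wide because 2 of its rats stood at 8.26 and 8.20, while the other 4 lay between 9.02 and 9.43 and reached into the ANIT range. Gys2 was higher by 0.56 ± 0.18, 1.47-fold (limma adjusted p = 0.0288). This rise was the least steady of the 24 h calls on Gys2, G6pc1 and Pygl under these array measures: it was 0.25 without the arrays of narrow spread, which include both low vehicle rats (limma adjusted p = 0.266), and 0.43 with the level of the spiked controls as a covariate (adjusted p = 0.0955). Leaving out either of these 2 vehicle rats, or 1 of 3 ANIT rats, also ended the call, with changes over all such fits from 0.41 to 0.66 and adjusted p up to 0.097.

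At 120 h Gys2 ran from 8.66 to 9.25 in vehicle (median 9.10) and from 7.83 to 8.46 in ANIT (median 8.16). All 6 ANIT rats lay below all 6 vehicle rats. Gys2 was 1.86-fold lower, a change of -0.90 ± 0.18 (limma adjusted p = 0.00704), and the call was kept under all 10 alternatives and whichever rat was left out, with changes between -0.97 and -0.83 in the latter. The ANIT effect at 120 h was lower than that at 24 h by 1.45 (change -1.45 ± 0.25, limma adjusted p = 0.000335).

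Pygl ran from 8.77 to 9.41 in vehicle at 24 h (median 9.11) and from 8.33 to 9.25 in ANIT at 24 h (median 8.72). The groups overlapped, with 2 ANIT rats above the lowest vehicle rat. The change of -0.41 ± 0.13, 1.33-fold lower, was called (limma adjusted p = 0.0297). It was -0.47 without the arrays of narrow spread (adjusted p = 0.0631), and leaving out 1 of 2 vehicle or 1 of 2 ANIT rats of the 24 h groups ended the call, with adjusted p up to 0.0918. At 120 h the order was turned: vehicle ran from 8.78 to 9.13 (median 9.04) and ANIT from 9.16 to 9.61 (median 9.37). All 6 ANIT rats lay above all 6 vehicle rats, but the change of 0.37 ± 0.13 did not pass the test (limma adjusted p = 0.165). With quantile normalization it did, at 0.46 (adjusted p = 0.0345).

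For Pygl the ANIT effect at 120 h exceeded that at 24 h by 0.78 ± 0.18 (limma adjusted p = 0.00565). Of the 6 enzymes, G6pc1, Gys2 and Pygl were called in this test of the difference between times, which called 14.3% of all genes. Pck1 (0.11 ± 0.12, limma adjusted p = 0.534), Fbp1 (-0.16 ± 0.11, adjusted p = 0.331) and Pklr were not. At 120 h these same 3 enzymes, G6pc1, Gys2 and Pygl, had ANIT and vehicle values that did not overlap, against 2.14% of all genes, although 1 of them was called.

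**Figure D2:**
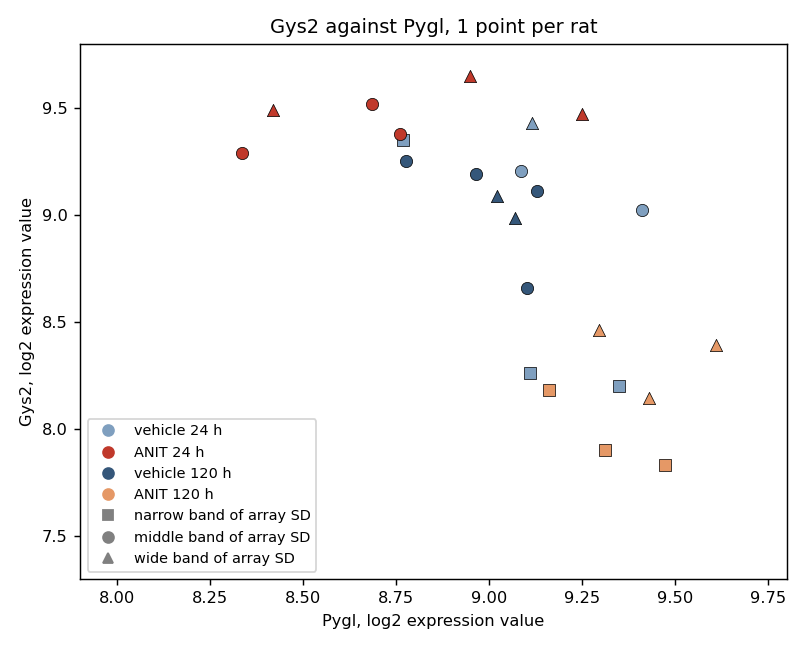
Log2 expression value of Gys2 (vertical axis) against that of Pygl (horizontal axis) in each of the 24 rats; colours are groups and marker shapes the 3 bands of array SD. ANIT rats at 24 h lie at the upper left, with Gys2 from 9.29 to 9.65, and ANIT rats at 120 h at the lower right, with Pygl from 9.16 to 9.61.

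The opposed shifts of Gys2 and Pygl can be read in each rat as log2 Gys2 minus log2 Pygl. Its level depends on the probes, so the shift between groups alone has a meaning, and this measure was chosen after the values were seen and was not tested. In vehicle livers at 24 h it ran from -1.15 to 0.58 (median -0.13), and in ANIT livers from 0.22 to 1.07 (median 0.77). At 120 h it ran from -0.44 to 0.48 (median 0.03) in vehicle and from -1.64 to -0.83 (median -1.25) in ANIT. The values of the 2 ANIT groups did not overlap. Over all 24 arrays, which include the group differences, Gys2 and Pygl had a Pearson r of -0.68.

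Between the vehicle groups none of the 6 enzymes was called, in a limma test that called 0.00744% of genes. G6pc1 was 0.42 ± 0.19 higher at 120 h than at 24 h (limma adjusted p = 0.397), and the vehicle medians of Gys2 were 9.12 and 9.10. The single gene called of 13438 was Gpt, alanine aminotransferase, which feeds alanine carbon into glucose synthesis. Gpt ran from 8.05 to 9.17 in vehicle at 24 h and from 9.27 to 9.78 in vehicle at 120 h, a change of 1.04 ± 0.16 (limma adjusted p = 0.00741). The call on Gpt was lost without the arrays of narrow spread, where the change was 0.86, and with the 2 vehicle groups fitted alone (adjusted p = 0.0752); its change ran from 0.86 to 1.10 over 10 alternatives.

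The differences of the enzymes were also read within the bands of array SD. Within the middle and the wide band the 24 h difference was -1.94 and -1.76 for G6pc1, 0.28 and 0.11 for Gys2, -0.66 and -0.24 for Pygl and -0.30 and -0.55 for Pklr. At 120 h the wide band alone held both groups and gave -0.70 for Gys2, 0.40 for Pygl and -0.26 for G6pc1. These differences within bands rest on 1 to 3 rats a group and were not tested. The 24 h fall of G6pc1 and the 120 h fall of Gys2 were called with each of these measures in the model and without the narrow band.

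**Figure D3:**
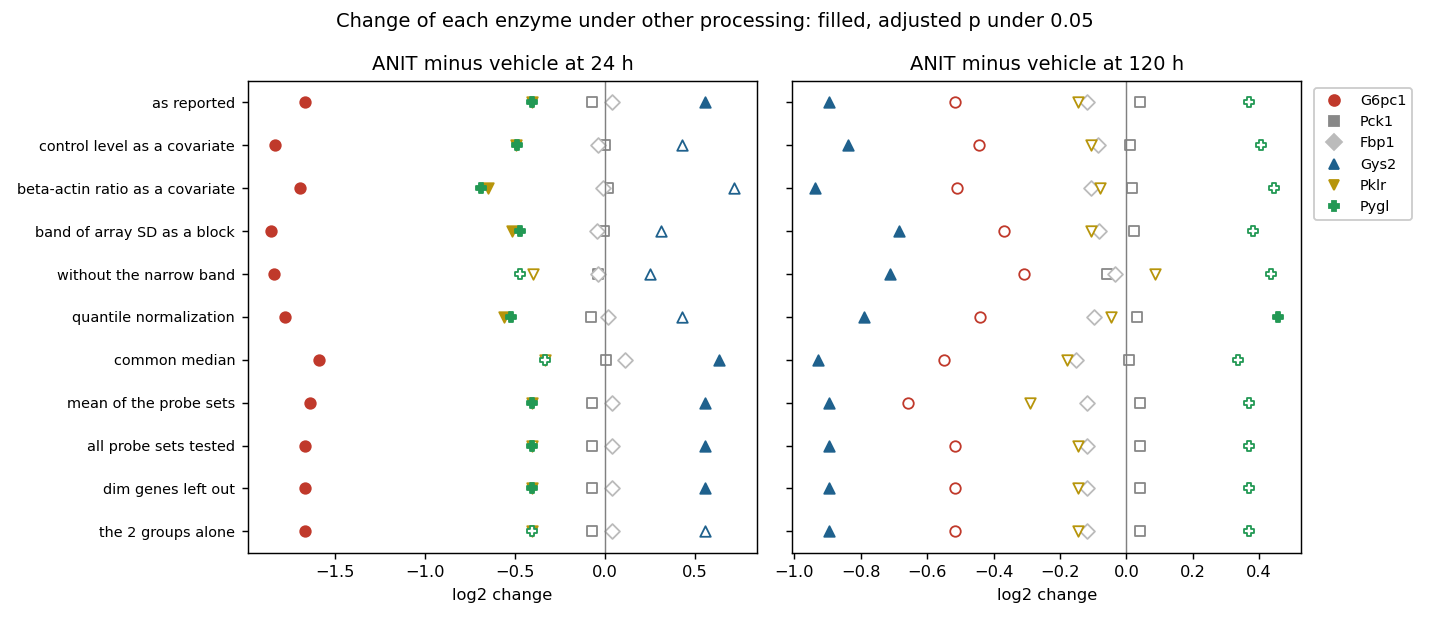
Log2 change of the 6 enzymes at 24 h (left) and 120 h (right) as reported and under 10 other choices of processing, 1 row per choice; filled symbols have an adjusted p under 0.05, and Pklr and Pygl lie on top of each other in several rows of the left panel. G6pc1 at 24 h and Gys2 at 120 h are filled in every row, and Gys2 at 24 h lies at 0.25 and is open without the narrow band.

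The enzymes' paralogs, which serve other tissues or compartments, showed no called change in any comparison. The 7 measured were G6pc3, Pck2, Fbp2, Gys1, Pkm, Pygb and Pygm. Group means were 4.18 to 4.28 for Pygm, 4.60 to 4.92 for Fbp2 and 5.15 to 5.33 for Gys1. These lay below the medians of the arrays, 5.34 to 5.54, so a lack of calls says little about them. G6pc3, Pck2, Pkm and Pygb had group means above those medians. At 24 h their changes ran from -0.15 for Fbp2 to 0.48 for Pck2, the mitochondrial isoform of Pck1 (0.48 ± 0.18, limma adjusted p = 0.0685). Pck2 was called higher with dim genes left out (adjusted p = 0.0436), and when 1 of 2 rats was left out. In the difference between times, 1 paralog was called once the level of the control probe sets was a covariate. At 120 h they ran from -0.19 for G6pc3 to 0.23 for Pygb.

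The other genes of glucose supply showed falls at the entry of glycerol and serine. Of 13 measured genes of gluconeogenesis and its supply, 1 was called higher and 3 lower at 24 h, with a median change of -0.04. For this and the lists below, 12.9% of all genes were called higher and 5.31% lower at 24 h. Gk, the glycerol kinase, fell by 0.91 on the log2 scale, with all ANIT rats below all vehicle rats (change -0.91 ± 0.09, limma adjusted p = 8.97e-08). Gpd1, the next enzyme on the path of glycerol, changed by -0.41 ± 0.11 (limma adjusted p = 0.013), and Sds, the serine dehydratase, by -1.38 ± 0.32 (limma adjusted p = 0.00274). Mdh1, the cytosolic malate dehydrogenase, rose by 0.30 ± 0.10 (limma adjusted p = 0.0395). Slc37a4, which carries glucose 6-phosphate to G6pc1, changed by -0.17 ± 0.12 and was not called (limma adjusted p = 0.35).

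Of 15 measured genes of glycolysis, 4 were called higher and 1 lower at 24 h, with a median of 0.01. Pgam1, phosphoglycerate mutase, rose by 0.52 ± 0.09 (limma adjusted p = 7.83e-05), and Aldoa, an aldolase more typical of muscle and growing cells, by 0.55 ± 0.13 (adjusted p = 0.00247). Gapdh rose by 0.29 (adjusted p = 0.00499). Tpi1, triosephosphate isomerase, rose by 0.36 (adjusted p = 0.0143). That call was lost without the narrow band (0.29, adjusted p = 0.136) and with the bands as a block (0.24, adjusted p = 0.0517). It was also lost with the beta-actin ratio as a covariate (0.15, adjusted p = 0.699). The gene that fell was Gckr, the regulatory protein that holds glucokinase in the nucleus in a fast (change -0.68 ± 0.11, limma adjusted p = 6.85e-05).

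Around Gys2, 2 genes that supply and branch glycogen were called lower at 24 h, as were 5.31% of all genes. Of 9 measured genes of glycogen synthesis, 2 were called lower and none higher: Ugp2, which makes UDP-glucose, the donor used by Gys2 (change -0.89 ± 0.13, limma adjusted p = 1.18e-05), and Gbe1, the branching enzyme (change -0.52 ± 0.11, adjusted p = 0.00109). Both calls were kept under all 10 alternatives. Around Pygl, none of 7 measured genes of glycogen breakdown was called at 24 h, with changes from -0.34 to 0.48. At 120 h, 2 of these 7 were called lower, as were 1.51% of all genes. Phkb, a subunit of the phosphorylase kinase that activates Pygl, changed by -0.55 ± 0.14 (limma adjusted p = 0.0449). Stbd1, which binds glycogen for lysosomal breakdown, changed by -0.58 ± 0.14 (limma adjusted p = 0.0305). The call on Phkb was lost under 5 of 10 alternatives and with any of 19 rats left out. That on Stbd1 was lost under 4 of 10 alternatives and with any of 6 rats left out.

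Of 8 measured genes that bring fructose and galactose to these enzymes, 5 were called lower and none higher at 24 h, with a median of -0.46 against 0.00 for all genes. Of all genes, 5.31% were called lower. Galm, the galactose mutarotase, changed by -1.41 ± 0.11 (limma adjusted p = 2.19e-09), Galt by -0.73 ± 0.17 (adjusted p = 0.00288), Sord by -0.65 ± 0.11 (adjusted p = 6.72e-05) and the fructose carrier Slc2a5 by -0.57 ± 0.12 (adjusted p = 0.00154). Khk, ketohexokinase, was the other gene called lower, at -0.35 (adjusted p = 0.0423). Its call was lost without the narrow band (-0.39, adjusted p = 0.0722), with a common median (-0.27, adjusted p = 0.195) and among all probe sets (adjusted p = 0.0586). It was also lost with the groups of 24 h alone (adjusted p = 0.0924) and when any 1 of several 24 h rats was left out. Over all fits with a rat left out, its change ran from -0.42 to -0.28. The pentose phosphate pathway, which takes glucose 6-phosphate to NADPH and ribose, had genes that rose. Against 12.9% of all genes, 4 of its 7 measured genes were called higher and none lower, with a median of 0.41. They were Rpia (0.65 ± 0.21), Pgd (0.58 ± 0.11), Taldo1 (0.47 ± 0.12) and Tkt (0.41 ± 0.14), with limma adjusted p from 0.000278 to 0.0375.

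Among 14 measured genes that switch fructose bisphosphate and pyruvate use, 2 were called higher and 3 lower at 24 h. Pdk4, a kinase that shuts pyruvate dehydrogenase in a fast, changed by -1.38 ± 0.32 (limma adjusted p = 0.00346), Pdk2 by -0.66 ± 0.16 (adjusted p = 0.00538) and Mpc1, part of the mitochondrial pyruvate carrier, by -0.44 ± 0.09 (adjusted p = 0.00128). Pdha1, a subunit of pyruvate dehydrogenase, rose by 0.36, and Pdp1, the phosphatase that opposes the kinases, by 0.64 (adjusted p = 0.0193). With the beta-actin ratio as a covariate neither was called, with changes of 0.40 for Pdha1 (adjusted p = 0.146) and 0.70 for Pdp1 (adjusted p = 0.175). The call on Pdp1 was also lost when any 1 of several 24 h rats was left out (limma adjusted p up to 0.0673). Mean values of Pdp1 at 24 h were low, 4.17 in vehicle and 4.81 in ANIT, below the medians of the arrays (5.34 to 5.54).

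Of 29 measured hormone signals and transcription factors of the fasted liver, 3 were called higher and 4 lower at 24 h. Over all genes these shares were 12.9% and 5.31%. Nr0b2 (SHP), a repressor induced by bile acids, rose 5.10-fold (2.35 ± 0.25, limma adjusted p = 1.96e-07), and Nr1h4 (FXR), the bile acid receptor that induces it, fell 2.23-fold (change -1.16 ± 0.20, adjusted p = 0.000142). Nr3c1, the glucocorticoid receptor, changed by -0.55 ± 0.13 (adjusted p = 0.00304) and Txnip, a glucose-responsive gene, by -0.42 ± 0.09 (adjusted p = 0.00128). Of the other genes in this list, 3 regulators of G6pc1 and Pck1 in a fast were picked after their values were seen. Ppargc1a (-0.11, limma adjusted p = 0.622), Foxo1 (0.06, adjusted p = 0.775) and Gcgr, the glucagon receptor (-0.26, adjusted p = 0.0553), were not called. They do not stand for all regulators in the list. Gcgr was called lower in 5 of 10 alternatives: with the control level as a covariate (-0.36, adjusted p = 0.00321), with the bands as a block (-0.33, adjusted p = 0.00819), with quantile normalization (-0.36, adjusted p = 0.00176), with the mean of the probe sets (adjusted p = 0.0481) and with dim genes left out (adjusted p = 0.0311).

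**Figure D4:**
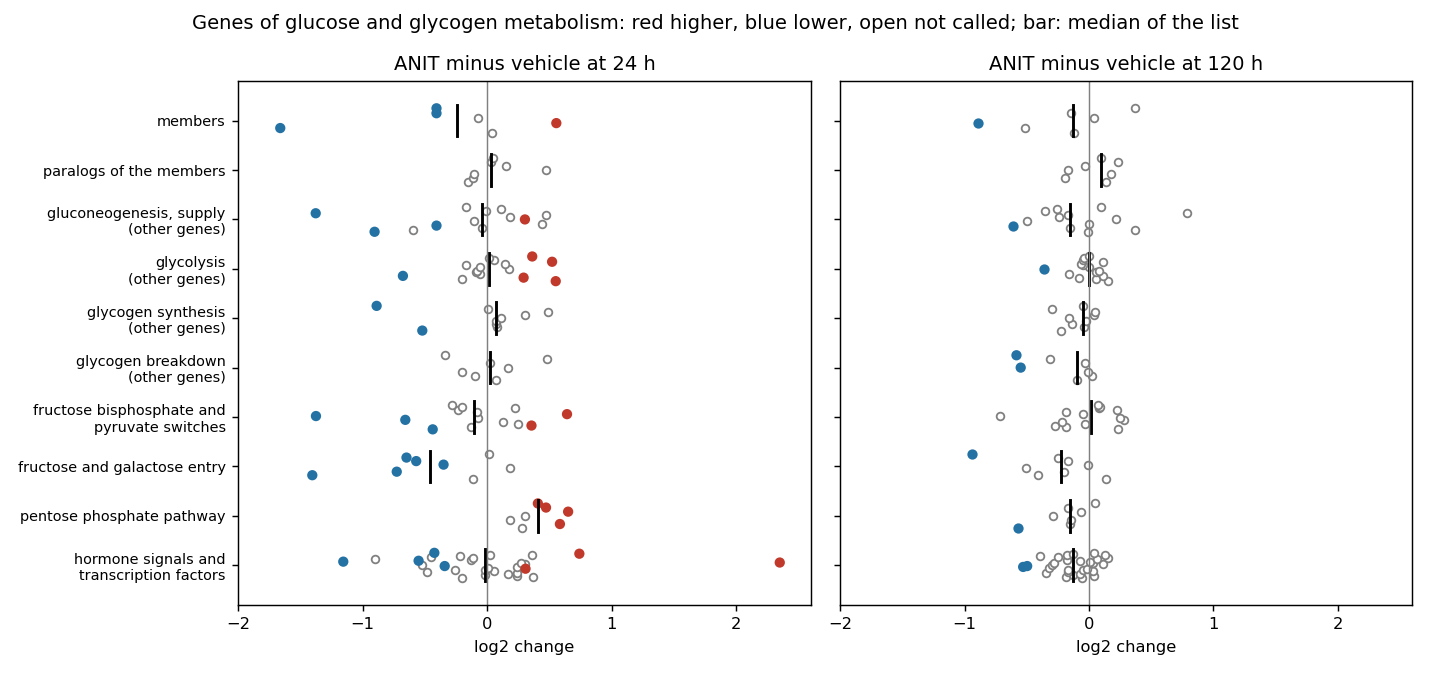
Log2 change of each measured gene (horizontal axis) in the lists of glucose and glycogen metabolism, at 24 h (left) and 120 h (right); red points were called higher, blue lower, open points were not called, and the bar is the median of the list. At 24 h the median was -0.46 for fructose and galactose entry and 0.41 for the pentose phosphate pathway; at 120 h few genes were called in any list.

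The calls on these list genes at 24 h held unevenly under other processing. Of the 26 genes picked by smallest p in the lists of metabolism and its regulators, 12 were called under all 10 alternatives and whichever rat was left out: Gk, Gckr, Pgam1, Ugp2, Gbe1, Mpc1, Sord, Galt, Galm, Nr3c1, Nr1h4 and Nr0b2. The other 14 calls were lost with the beta-actin ratio as a covariate, and 5 of them, on Mdh1, Aldoa, Pdha1, Rpia and Tkt, also without the narrow band. Because the ratio did not overlap between the 24 h groups, that fit cannot tell the ratio apart from ANIT. In it some changes grew while their SE widened, such as Pdk4 (-1.54 ± 0.48) and Pdk2 (-0.79 ± 0.24). Others shrank, such as Taldo1 (0.21 ± 0.16) and Tkt (0.18 ± 0.19). With the beta-actin ratio as a covariate no gene of the pentose phosphate pathway was called, and without the narrow band 2 were.

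At 120 h, when most lists had few called genes, those called were all lower. Over all genes, 1.51% were called lower and 0.513% higher at 120 h. Besides Phkb and Stbd1 they were Gpd1 (change -0.61 ± 0.11, limma adjusted p = 0.00444), Ldha (-0.36 ± 0.07, adjusted p = 0.00765), Tkfc, which handles fructose-derived glyceraldehyde (-0.94 ± 0.17, adjusted p = 0.00358), H6pd (-0.57 ± 0.12, adjusted p = 0.0113), and in insulin signalling Insr (-0.53 ± 0.14, adjusted p = 0.0441) and Irs1 (-0.50 ± 0.12, adjusted p = 0.0277). Without the narrow band, which removes 3 of the 6 ANIT rats of 120 h, 7 of these 8 calls were lost, with changes from -0.75 for Tkfc to -0.26 for Insr, and the one on Ldha was kept (-0.32 ± 0.07, adjusted p = 0.0358). The call on Phkb was lost when any of 19 of the 24 rats was left out, that on Insr with any of 15, on Stbd1 with any of 6 and on Irs1 with any of 5.

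In the test of the difference between times, which called 14.3% of all genes, several genes of these lists were called with G6pc1, Gys2 and Pygl. The ANIT effect was higher at 120 h than at 24 h for Sds (2.16 ± 0.45, limma adjusted p = 0.00182), Gk (0.90 ± 0.13, adjusted p = 4.32e-05), Ugp2 (0.84 ± 0.18, adjusted p = 0.00227), Gckr (0.79 ± 0.16, adjusted p = 0.00117), Galm (0.999 ± 0.16, adjusted p = 0.000119) and Nr1h4 (1.17 ± 0.28, adjusted p = 0.00646). It was lower for Nr0b2 (-2.32 ± 0.35, adjusted p = 9e-05), H6pd (-0.85 ± 0.17, adjusted p = 0.00138) and Pgd (-0.74 ± 0.15, adjusted p = 0.00166). The values of Sds ran from 6.36 to 8.79 in vehicle and 5.59 to 6.87 in ANIT at 24 h, and from 8.05 to 9.25 in vehicle and 9.33 to 9.91 in ANIT at 120 h. At 120 h its ANIT and vehicle rats did not overlap, but the change of 0.78 ± 0.32 was not called (limma adjusted p = 0.246), except with the control level as a covariate (0.93, adjusted p = 0.0424). Of 22 genes picked in these lists for the difference between times, Sds, Gk, Ugp2, Gckr, Galm, Nr0b2 and Mpc1 were called under every alternative run and whichever rat was left out, and the other 15 lost the call with the beta-actin ratio. That ratio cannot be told apart from ANIT at 24 h.

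The livers carried the markers of hepatocytes at a high level in every group. Averaged over 8 markers such as Alb and Ttr, the hepatocyte level ran from 11.46 to 11.79 in vehicle and from 11.51 to 11.84 in ANIT at 24 h, and from 11.70 to 11.84 and from 11.56 to 11.78 at 120 h. Of these 8, 1 was called at 24 h, Tat, as higher, and none at 120 h. Because whole liver was measured, fewer cells of a type and less RNA per cell cannot be told apart for G6pc1 or any other gene here.

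Both periportal and pericentral hepatocyte markers had calls in each direction at 24 h, when 12.9% of all genes were called higher and 5.31% lower. Of 8 periportal markers, a list that includes Pck1 and Sds, 1 was called higher (Arg1, 0.36) and 1 lower (Sds) at 24 h. Of 7 pericentral markers, Cyp2e1 (-0.58), Oat (-0.79) and Glul (-0.37) were called lower at 24 h and Cyp1a2 (0.85) higher, and at 120 h Cyp1a2 (-0.85) was called lower. The averaged periportal level ran from 9.52 to 10.36 in vehicle and from 9.46 to 10.11 in ANIT at 24 h, and the averaged pericentral level from 8.50 to 8.71 in vehicle and from 8.29 to 8.54 in ANIT at 24 h. The part of these zonal changes in those of G6pc1, Gys2 and Pygl was not tested.

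Among markers of other cells, S100a8 (1.82 ± 0.38, limma adjusted p = 0.00132) and S100a9 (0.87 ± 0.22, adjusted p = 0.00598) were called higher at 24 h, 2 of 6 neutrophil markers. The level averaged over the 6 ran from 4.45 to 5.26 in vehicle and from 5.005 to 5.28 in ANIT. Their median change was 0.03 and the lowest -0.07, so the higher average rests on S100a8 and S100a9. Cholangiocyte markers, 0 of 8 called at 24 h, averaged 5.43 to 5.73 in ANIT against 5.18 to 5.39 in vehicle at 120 h, without overlap, and Krt19 (0.73 ± 0.12, adjusted p = 0.00147) and Cftr were called higher. Of 6 macrophage markers, Cd163 was called higher at 24 h (0.38) and at 120 h (0.43). Of 8 stellate cell markers, Lrat (-1.25) and Reln (-0.52) were called lower at 24 h and none was called at 120 h. The calls on Tat, Arg1, Cftr and, at both times, Cd163 were lost without the narrow band, and those on S100a8, Krt19, Lrat, Cyp2e1, Oat and Cyp1a2 were kept under all alternatives. The part of these cells in the changes of the 6 enzymes was not tested.

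As a description of which genes ran most like each enzyme over the 24 arrays, the 3 highest Pearson correlations are given, which share the group differences and carry no test. G6pc1 ran with Atosa (r = 0.94), Abhd6 (0.93) and Galm (0.93). Gys2 ran with Abce1 (0.91), Gss (0.90) and Psmd12 (0.89), and Pygl with Rarres1 (0.86), Npas2 (0.85) and Sema4g (0.84). Pklr had lower values, with Csad (0.79), Slc6a9 (0.76) and C2h1orf56 (0.74), as did Pck1 with Wnk2 (0.78), Slc22a21 (0.77) and Phyh (0.73). The genes most like Fbp1 were Tubgcp3 (0.83), Smim19 (0.83) and Gemin4 (0.82), and with the level of the spiked controls removed these came to 0.66, 0.66 and 0.63. G6pc1 and Pck1 correlated at 0.33 with each other, and G6pc1 and Fbp1 at 0.02.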

How the data were processed

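The authors deposited 1 table of log2 expression values, 31139 probe sets by 24 arrays; the submitters' processing notes name RMA and Partek, with settings not given in the sources used here. Values were used as deposited. Probe sets were named by the platform annotation (19068 with 1 gene, 573 with several, 11498 without a listed gene), and the probe set of highest mean stood for each of the 13438 genes. Groups came from the labels; replicate numbers follow accession order and pair no rats. A model of the 4 groups was fitted with limma 3.58.1 in R 4.3.3 (lmFit, eBayes), with Benjamini-Hochberg adjustment, and the script was tested on simulated data. Values carry the SE of that fit. The number of arrays, 6 a group, limits the precision.

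The members and the 21 lists beside them (185 of 221 genes measured) were chosen with earlier results of these data known. Named genes were the members, their paralogs, up to 4 called genes of smallest p per list and comparison, and the 3 genes most correlated with each member; Tpi1, Khk, Pdp1, Slc37a4, Ppargc1a, Foxo1 and Gcgr at 24 h and Sds at 120 h were added after their values were seen. Promoters are RefSeq windows of build GRCr8. Alternatives changed covariates, normalization, arrays, probe sets, filter and the rats in the fit. Figures used Python 3.11.15 and matplotlib 3.10.9.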

Additional observations from a re-analysis of the deposited data

Results flagged for a closer look

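The effect of ANIT differed between 24 h and 120 h, by limma's test of the difference itself, for 3 of the 6 enzymes. That test called 14.3% of all genes. For G6pc1 the effect was higher at 120 h by 1.15 (-1.66 at 24 h and -0.52 at 120 h). On the other G6pc1 probe set the difference of 0.81 was not called (limma fit of all probe sets, adjusted p = 0.169). For Gys2 the difference was -1.45, from 0.56 at 24 h to -0.90 at 120 h. For Pygl it was 0.78, from -0.41 at 24 h to 0.37 at 120 h. Dixon's test for 1 outlying rat, run for each enzyme and group, gave 0 outliers in 24 tests. That test can miss a pair of low values, such as the 2 vehicle rats of 24 h at 8.26 and 8.20 for Gys2.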

How the results depend on the processing

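Under the alternatives run (10 at each time and 9 for the difference between times) and with each of the 24 rats left out in turn, the 24 h fall of G6pc1 (-1.81 to -1.54 with a rat left out), the 120 h fall of Gys2 (-0.97 to -0.83) and the differences between times of Gys2 and Pygl kept their direction and their call. The difference for G6pc1 lost its call with the beta-actin ratio as a covariate (1.18, adjusted p = 0.104). At 24 h that ratio did not overlap between ANIT and vehicle, so calls lost with it cannot tell the ratio apart from ANIT. The other calls at 24 h depended on the processing. Gys2 lost its call with the control level (0.43), the beta-actin ratio (0.71), the bands as a block (0.31), no narrow band (0.25), quantile normalization (0.43) and the groups of 24 h alone (0.56). Pygl lost it without the narrow band (-0.47), with a common median (-0.33) and with those groups alone (-0.41), and Pklr without the narrow band (-0.40), with a common median (-0.33) and among all probe sets (-0.41). With a rat left out, these changes ran from 0.41 to 0.66 for Gys2, -0.51 to -0.33 for Pygl and -0.50 to -0.34 for Pklr, and 1 to 4 enzymes were called. Of the 6 enzymes, 1 was called at 24 h without the narrow band, 2 with a common median and 2 with the groups of 24 h alone. The share of all genes called under each of these settings is not given here. Leaving out the narrow band removes 3 of the 6 vehicle rats of 24 h. With it the SE of Pygl at 24 h went from 0.13 to 0.16, so lost calls there do not show smaller changes by themselves. Quantile normalization called Pygl at 120 h (0.46), which made 2 calls at that time, and Pklr between the vehicle groups (-0.69), where it was the 1 call.

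Signs turned among changes that were never called. At 24 h Pck1 came to 0.00012 with the control level, 0.018 with the beta-actin ratio and 0.0056 with a common median, and Fbp1 to -0.037, -0.010, -0.044 and -0.040 with the control level, the ratio, the bands and no narrow band. Without the narrow band Pck1 was -0.057 and Pklr 0.085 at 120 h, and the differences between times were -0.019 for Pck1 and 0.0062 for Fbp1; that of Pck1 was -0.0020 with the ratio. Pck1 at 120 h ran from -0.0031 to 0.068 with a rat left out. Between the vehicle groups Gys2 was -0.096 with the bands, -0.17 without the narrow band and from -0.0058 to 0.24 with a rat left out. Of the list genes, Cd79b, a lymphocyte marker called lower at 24 h, came to 0.0035 with the ratio, and Ppargc1a and Foxo1, not called at 24 h, to 0.010 with the control level and 0.025 with the ratio, and to -0.0093 with the mean of the probe sets and from -0.0017 to 0.13 with a rat left out. The cause of these shifts was not tested. No paired analysis was possible because the labels give no replicate numbers shared between the groups.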

Other observations

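Some markers of other tissues and cells changed outside the comparisons above. At 24 h, 12.9% of all genes were called higher and 5.31% lower. Of 5 measured endothelial markers, Lyve1 was called higher at 24 h (0.54 ± 0.12, limma adjusted p = 0.00163), and Kdr (-0.35, adjusted p = 0.00346) and Stab2 (-0.50, adjusted p = 0.0484) were called lower. Of 6 lymphocyte markers, Cd8a (-0.56, limma adjusted p = 0.00693) and Cd79b (-0.32, adjusted p = 0.0301) were called lower at 24 h. Of 6 pancreatic acinar markers, Cela1 (-0.82, limma adjusted p = 0.0122) was called lower and Cpa1 (0.31, adjusted p = 0.00805) higher at 24 h. None of 3 skeletal muscle and none of 3 erythroid markers measured was called in any comparison. The calls on Lyve1, Cpa1 and Cd79b were lost without the narrow band of array SD, and that on Stab2 when any of 17 of the 24 rats was left out.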
